A study of Mus musculus with 4 samples.

Results

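The genes described here are 10 epithelial genes, *Cdh1*, *Epcam*, *Cldn3*, *Cldn4*, *Cldn6*, *Cldn7*, *Ocln*, *Esrp1*, *Esrp2* and *Grhl2*, of the 25819 rows in the deposited expression table. They were chosen by symbol as genes of epithelial junctions and epithelial splicing, each was found in 1 row, and each had more than 1 FPKM in every library. FPKM is the number of reads scaled to the length of the transcript and to the number of mapped reads. RNA-Seq was made from whole urogenital sinus (UGS), the embryonic tissue from which the prostate and the urethra form, of male mouse embryos. There were 4 libraries, wild type and *Tbx18Gfp/Gfp* at E16.5 and the same genotypes at E18.5, each made from RNA pooled from 3 embryos. The mutants carry GFP in both copies of *Tbx18*, a T-box gene of the mesenchyme, so that the allele is null in every cell of the embryo, and wild type embryos were their littermates. Since each genotype and stage had a single library, replicate error is unknown and no test was made.

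Epithelial cells hold to each other by adherens junctions, in which E-cadherin (*Cdh1*) binds the same protein on the next cell, and by tight junctions, which seal the space between cells and are built from claudins and occludin (*Ocln*). EPCAM is an adhesion protein of epithelial cell surfaces that binds claudin 7. ESRP1 and ESRP2 are RNA-binding proteins that set the epithelial pattern of splicing, for example of the FGF receptor gene *Fgfr2*, and GRHL2 is a transcription factor that drives genes of the epithelial junctions. These genes are used as markers of epithelium, which in the UGS lines the lumen and grows out as prostate buds into the surrounding mesenchyme. In RNA from whole tissue, fewer epithelial cells and less RNA of a gene per epithelial cell cannot be told apart.

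Facts of the libraries that bear on these genes are as follows. The depth, estimated from genes whose FPKM was that of a single read, was about 64000000, 55700000, 29000000 and 52400000 mapped reads in the order E16.5 wild type, E16.5 mutant, E18.5 wild type, E18.5 mutant. Values are given in this order throughout. This left between 291 and 9584 reads behind each value of the 10 genes, and the 95% intervals below come from these estimates and cover counting error only. The E18.5 wild type library stood apart from the others, as the next values show. The median log2 fold change of mutant over wild type across all genes (1 FPKM or more in each library of the pair) was 0.01 for the E16.5 pair and 0.29 for the E18.5 pair. E18.5 values of the 10 genes and of gene lists are therefore also given with this median taken off, and are then called centred. Those of other single genes are as deposited unless called centred, and taking the median off lowers each by 0.29. The E18.5 ratio moved with the GC content of the transcript, with a rank correlation (Spearman) of 0.43 over 13012 genes, while that of the E16.5 ratio was 0.01 over 13478 genes. Both are descriptions, since genes of a library are not independent. *Tbx18* had 3.47, 2.50, 3.16 and 2.93 FPKM. These are values of the whole gene, which do not separate the targeted from the intact locus, and where its reads lie was not examined.

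*Epcam* had the highest mean FPKM of the 10 genes, 55.3 over the 4 libraries, followed by *Cldn4* with 32.1 and *Cdh1* with 30.8. *Cldn7* (20.8), *Cldn3* (14.98), *Cldn6* (12.3) and *Esrp1* (11.8) came next. *Esrp2* (7.16), *Ocln* (6.55) and *Grhl2* (5.28) had the lowest mean FPKM, and neighbours in this order overlapped in their range over the libraries except for *Epcam* and *Cldn4* and for *Esrp1* and *Esrp2*. The largest spread was that of *Cldn7*, 3.14-fold from its lowest to its highest library, and the smallest were those of *Esrp1* (1.33-fold) and *Epcam* (1.34-fold). Of the 10 genes, 7 had their lowest FPKM in the E18.5 wild type library, namely *Epcam*, *Ocln*, *Grhl2* and the 4 claudins, but *Cdh1* had its highest there.

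**Figure D1:**
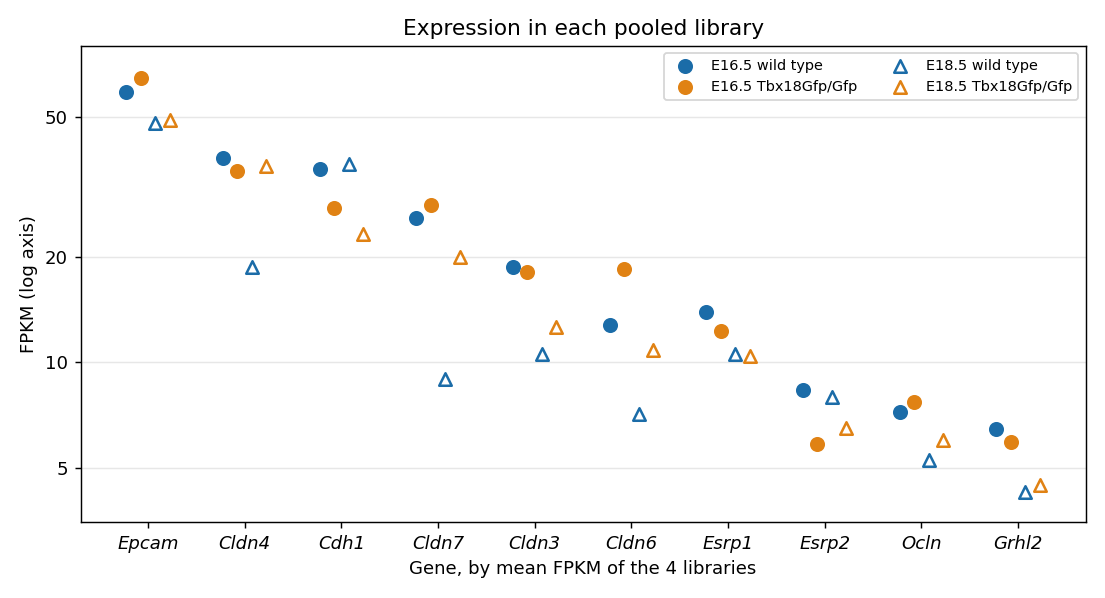
FPKM (log axis) of the 10 genes in each pooled library, ordered by mean FPKM, with circles for E16.5, open triangles for E18.5, blue for wild type and orange for *Tbx18Gfp/Gfp*. *Cdh1*, *Esrp2* and, by little at E18.5, *Esrp1* are lower in the mutant at both stages. The open blue triangles of *Cldn4* and *Cldn7* lie at 18.8 and 8.97 FPKM, far below the other 3 libraries.

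The cell adhesion genes *Cdh1* and *Epcam* differed in their pattern. *Cdh1*, on chromosome 8 from 109127268 to 109194146, had 35.5 FPKM (E16.5 wild type), 27.5 FPKM (E16.5 mutant), 36.8 FPKM (E18.5 wild type) and 23.3 FPKM (E18.5 mutant). Both wild type libraries were thus higher than both mutant libraries. The log2 fold change of mutant over wild type was -0.37 at E16.5 (counting interval -0.41 to -0.32) and -0.66 at E18.5 (-0.72 to -0.60), the latter -0.95 when centred. It was negative at both stages in every alternative tried, from -0.47 to -0.36 at E16.5 and from -1.09 to -0.61 at E18.5. Of 14471 genes with at least 1 FPKM in a library of each stage, 0.753% were lower by at least as much as *Cdh1* at both stages. Positions are those of the deposited table, for which no genome build is named.

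*Epcam*, on chromosome 17 from 88035319 to 88050467, had 59.3, 64.7, 48.3 and 49.1 FPKM. It was lower at E18.5 than at E16.5 in both genotypes, with log2 fold changes of -0.30 in wild type and -0.40 in the mutant. Between genotypes it differed little. The log2 fold change was 0.13 at E16.5 (0.08 to 0.18) and 0.03 at E18.5 (-0.04 to 0.09), which became -0.26 when centred and was between -0.55 and -0.24 with each other way of setting the libraries level. *Cdh3*, which encodes P-cadherin and lies near *Cdh1*, had 16.3, 18.2, 14.7 and 15.5 FPKM, not lower in the mutant at either stage as deposited (log2 fold changes of 0.16 and 0.09, the latter -0.20 when centred). The ratio of *Cdh1* to *Cdh3* FPKM, which does not depend on the scaling between libraries, was 2.19 and 2.51 in the wild type libraries and 1.513 and 1.496 in the mutant libraries.

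Genes for the alpha-, beta- and p120-catenin partners of cadherins did not share the pattern of *Cdh1* at E16.5. *Ctnna1*, *Ctnnb1* and *Ctnnd1*, for alpha-, beta- and p120-catenin, had log2 fold changes of -0.01, -0.06 and -0.03 at E16.5. At E18.5 they were 0.14, 0.61 and 0.18, and the centred values -0.14, 0.32 and -0.11. These genes are also expressed in mesenchyme. *Jup*, for gamma-catenin (plakoglobin), had 52.5, 43.6, 30.3 and 40.3 FPKM. It was lower in the mutant at E16.5, with a log2 fold change of -0.27, and higher at E18.5, with 0.41 (0.12 when centred).

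The 4 claudins share a low value in the E18.5 wild type library. *Cldn4*, on chromosome 5 from 135420993 to 135422804, had 38.2, 35.1, 18.8 and 36.4 FPKM. The first, second and last values were close together, and the E18.5 wild type value stood below them. The log2 fold change between genotypes was -0.12 at E16.5 (-0.19 to -0.05) and 0.96 at E18.5 (0.85 to 1.07), or 0.67 when centred.

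*Cldn7*, on chromosome 11 from 69779003 to 69781380, had 25.8, 28.2, 8.97 and 20.02 FPKM. Again the E18.5 wild type library was the low one, and *Cldn7* was the only one of the 10 genes past 2-fold between genotypes as deposited (with equal sums of the libraries it was *Cdh1* instead). Its log2 fold change was 0.13 at E16.5 (0.03 to 0.22) and 1.16 at E18.5 (0.97 to 1.34), which was 0.87 when centred and no longer past 2-fold. Set against the E16.5 wild type library, the E18.5 mutant library was lower in both, with log2 fold changes of -0.07 for *Cldn4* and -0.37 for *Cldn7*.

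*Cldn6*, a claudin of embryonic epithelia, on chromosome 17 from 23816332 to 23819407, had 12.8, 18.49, 7.12 and 10.9 FPKM. It was higher in the mutant library at each stage. The log2 fold change was 0.53 at E16.5 (0.42 to 0.64), the largest of the 10 genes at that stage, and 0.61 at E18.5 (0.42 to 0.81), or 0.32 when centred. After subtraction of a smooth trend on the length and GC content of transcripts these were 0.49 and -0.07, and against the E16.5 wild type library the E18.5 value was -0.23, so that the E18.5 direction depended on the processing. At E16.5, 98.2% of all genes with at least 1 FPKM had a log2 fold change at or below that of *Cldn6*. Both genotypes had less *Cldn6* at E18.5 than at E16.5, with log2 fold changes of -0.84 in wild type and -0.76 in the mutant.

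*Cldn3*, a claudin of tight junctions, lies on chromosome 5 from 135462084 to 135463342, 39.3 kb beyond the end of *Cldn4*. It had 18.7, 18.1, 10.5 and 12.6 FPKM. Both E18.5 libraries were low for this gene, unlike *Cldn4*. Its log2 fold change between genotypes was -0.05 at E16.5 (-0.17 to 0.07), which is within counting error of 0, and 0.26 at E18.5 (0.07 to 0.45), which was -0.03 when centred. The ratio of *Cldn4* to *Cldn3* FPKM was 2.04, 1.94, 1.78 and 2.89, and was thus highest in the E18.5 mutant library.

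The upstream sequences of the claudins and *Epcam* are shown because these genes differed in pattern although they mark the same tissue, and because the letters CAGGTG (an E-box, bound by the repressors ZEB1, ZEB2, SNAI1 and SNAI2 of epithelial genes) can be looked for in them. RefSeq (GRCm38.p6) promoters were held for 6 of the 10 genes, *Cldn3*, *Cldn4*, *Cldn6*, *Cldn7*, *Ocln* and *Epcam*. Within the 250 bases before an annotated start, CAGGTG or its reverse complement CACCTG was in 5 of these 6 genes, all but *Cldn3*, counting *Cldn7* and *Ocln*, which have 2 annotated starts each, if either window held it. The matches of *Ocln* and of *Cldn7* lie downstream of the other annotated start of the same gene. Counted by window, the letters were in 5 of the 8 windows of these genes and in 17.2% of all 32851 windows. The GRHL motif AACCNGTT, searched on both strands, was in none of them and in 1.79% of all promoters, and its strict form AACCGGTT in 0.116%. A match is a description of letters and not a site in use. The 250 bases before the start of *Cldn4*, *Cldn3* and *Epcam* are, with E-box letters in capitals:
*Cldn4*, chr5:134946935-134947184, minus strand: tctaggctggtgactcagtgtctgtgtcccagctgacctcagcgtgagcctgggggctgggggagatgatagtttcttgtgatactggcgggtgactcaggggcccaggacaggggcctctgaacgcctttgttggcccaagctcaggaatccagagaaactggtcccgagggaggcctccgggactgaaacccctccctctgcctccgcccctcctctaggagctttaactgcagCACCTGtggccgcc
*Cldn3*, chr5:134985964-134986213, plus strand: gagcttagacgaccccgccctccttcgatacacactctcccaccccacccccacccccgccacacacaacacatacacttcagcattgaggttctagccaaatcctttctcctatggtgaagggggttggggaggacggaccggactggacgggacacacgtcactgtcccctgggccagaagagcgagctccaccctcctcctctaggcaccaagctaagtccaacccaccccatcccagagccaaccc
*Epcam*, chr17:87635729-87635978, plus strand: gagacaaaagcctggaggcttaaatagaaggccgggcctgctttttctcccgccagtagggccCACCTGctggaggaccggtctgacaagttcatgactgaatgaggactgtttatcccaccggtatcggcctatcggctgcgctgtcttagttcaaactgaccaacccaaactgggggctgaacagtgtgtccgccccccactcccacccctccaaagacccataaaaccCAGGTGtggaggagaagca
The windows of *Cldn7* and *Cldn6* overlap 5′ untranslated exons of other annotated transcripts (GENCODE M21), and only 30 bases around each E-box are given. The *Cldn6* site and the first *Cldn7* site lie in such an exon, and the second *Cldn7* site crosses the end of one:
*Cldn7*, chr11:69965312-69965341, plus strand: tttcttcctcttCACCTGgacgaggagggg
*Cldn7*, chr11:69965352-69965381, plus strand: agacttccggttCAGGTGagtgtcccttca
*Cldn6*, chr17:23679260-23679289, plus strand: gggaaacgcacgCAGGTGgctatcgccgca

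The genes for the 4 named repressors of these letters had their highest FPKM in the E18.5 wild type library. They are part of a list of 21 mesenchymal genes, of which 12 were higher in the E18.5 mutant library. Of this list, *Twist1* (9.65 FPKM) and *Twist2* (24.2 FPKM) had their lowest values in the E18.5 wild type library. *Zeb1* had 21.1, 20.4, 27.5 and 21.3 FPKM, *Zeb2* 13.7, 13.1, 21.96 and 14.5, *Snai2* 23.8, 26.3, 41.2 and 20.9, and *Snai1* 8.89, 7.92, 9.74 and 9.25 FPKM. The log2 fold changes between genotypes were -0.05, -0.06, 0.14 and -0.17 at E16.5 and -0.37, -0.60, -0.98 and -0.07 at E18.5 in the order *Zeb1*, *Zeb2*, *Snai2* and *Snai1*, the latter -0.66, -0.89, -1.27 and -0.36 when centred. All genes with a promoter held had their lowest FPKM in this library, *Cldn3* without the letters included. *Cdh1*, for which no promoter was held, had its highest there. Whether the levels of the repressor genes bear on the claudins was not tested, and the same library also holds the shift on GC content.

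*Ocln*, for the tight junction protein occludin, on chromosome 13 from 101267322 to 101322453, had 7.21, 7.73, 5.27 and 6.00 FPKM. Between genotypes, the log2 fold change was 0.10 at E16.5 (0.00 to 0.20) and 0.19 at E18.5 (0.04 to 0.33), or -0.10 when centred. It was lower at E18.5 than at E16.5 in both genotypes, with log2 fold changes of -0.45 in wild type and -0.36 in the mutant. The other tight junction and polarity genes were read as a list. Of 24 such genes, a list of scaffolds, other claudins and polarity proteins, 11 were higher in the mutant at E16.5 and 13 lower, with a median log2 fold change of -0.02, and none was past 1.5-fold. At E18.5, 12 of 23 were higher and 11 lower, with a median of 0.03 (-0.26 when centred), and none was past 2-fold.

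The genes of that list with the most extreme values at each stage are named here. At E16.5, *Cldn1* and *Cldn8* were highest against wild type, with log2 fold changes of 0.51 and 0.48, and *Cldn23* and *Tjp3*, for the scaffold ZO-3, were lowest with -0.34 and -0.33. At E18.5, *Pard6b*, a polarity gene, and *Cldn23* were highest with 0.89 and 0.84. *Tjp1*, for the scaffold ZO-1, had 29.5, 27.5, 39.1 and 26.1 FPKM and was lowest with -0.58, and *Magi3* followed with -0.40. *Tjp1*, like *Cdh1*, had its highest FPKM in the E18.5 wild type library.

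**Figure D2:**
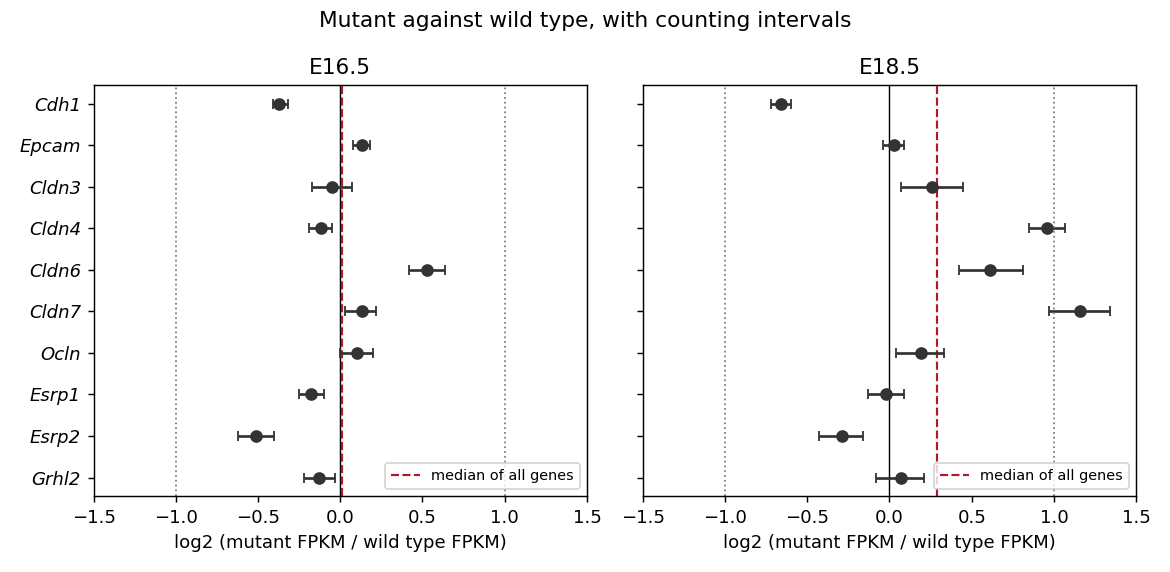
Log2 fold change of mutant over wild type FPKM of the 10 genes at E16.5 (left) and E18.5 (right), with 95% intervals of counting error only, dotted lines at 2-fold and a red dashed line at the median of all genes, 0.01 and 0.29. *Cdh1*, *Esrp2* and *Esrp1* (-0.02 at E18.5) lie below 0 in both panels. *Cldn6*, *Cldn7*, *Ocln* and *Epcam* (0.03 at E18.5) lie above 0 in both. Only *Cldn7* at E18.5 lies past 2-fold, at 1.16.

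Of the splicing regulators, *Esrp2* was lower in the mutant at both stages beyond counting error. *Esrp2*, on chromosome 8 from 108655083 to 108660874, had 8.34, 5.85, 7.96 and 6.49 FPKM. As for *Cdh1*, both wild type values were above both mutant values. The log2 fold change was -0.51 at E16.5 (-0.62 to -0.40), the lowest of the 10 genes, and -0.29 at E18.5 (-0.43 to -0.16), or -0.58 when centred. It was negative in every alternative, from -0.62 to -0.45 at E16.5 and from -0.89 to -0.26 at E18.5. At E16.5, 3.32% of all genes were at or below it, and 0.891% of genes were lower by at least as much at both stages.

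*Esrp1*, on chromosome 4 from 11259185 to 11313930, had 13.9, 12.3, 10.6 and 10.4 FPKM. It had the smallest spread over the libraries of the 10 genes. Its log2 fold change between genotypes was -0.18 at E16.5 (-0.25 to -0.10) and -0.02 at E18.5 (-0.13 to 0.09), or -0.31 when centred. The ratio of *Esrp2* to *Esrp1* FPKM was 0.599 and 0.476 in wild type and mutant at E16.5 and 0.752 and 0.622 at E18.5, lower in the mutant at each stage. In each genotype it was higher at E18.5. *Fgfr2*, whose splicing ESRP1 and ESRP2 are known to set, had 37.2, 42.0, 30.9 and 31.0 FPKM. Its pattern over the 4 libraries was the most like that of *Epcam*, but *Eif3k*, for a translation factor, was almost as close. No link is read from this likeness. The values of *Fgfr2* are sums over the isoforms of the gene, so no splice form was measured here.

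*Grhl2*, on chromosome 15 from 37162791 to 37293324, had 6.47, 5.92, 4.27 and 4.47 FPKM. Between genotypes, the log2 fold change was -0.13 at E16.5 (-0.22 to -0.03) and 0.07 at E18.5 (-0.08 to 0.21), or -0.22 when centred. It was lower at E18.5 in both genotypes, with log2 fold changes of -0.60 in wild type and -0.41 in the mutant. Its family members *Grhl1* and *Grhl3* were lower in the mutant at both stages as deposited, with log2 fold changes of -0.54 and -0.39 at E16.5 and of -0.08 and -0.15 at E18.5, or -0.37 and -0.44 when centred.

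Of 14 genes listed as epithelial regulators, 11 were lower in the mutant at E16.5, with a median log2 fold change of -0.26, none past 1.5-fold. *Prom2* and *Prrg2* of this list encode membrane proteins and not regulators. At E18.5, 10 of 13 were lower, with a median of -0.08 (-0.37 when centred). The lowest were *Klf5*, for a transcription factor of epithelial progenitors, with 23.1, 18.1, 65.2 and 14.3 FPKM (log2 fold change -2.19), and *Foxa1*, for a transcription factor of prostate epithelium (-0.97). *Klf5* was high in the E18.5 wild type library alone. *Prrg2* was the highest at both stages, with log2 fold changes of 0.28 and 1.26, *Ovol2* followed at E16.5 with 0.16 and *Prom2* at E18.5 with 0.12.

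Counted over the 10 genes, none was past 2-fold between genotypes at E16.5, where 1.65% of 14761 genes were, and none past 1.5-fold, where 4.15% were. At that stage 4 were higher in the mutant and 6 lower, where 54.2% of all genes were higher. The median log2 fold change of the 10 was -0.09. At E18.5, 1 of the 10 was at least 2-fold higher, against 15.1% of 14733 genes, and none 2-fold lower, against 2.89%. Past 1.5-fold, 3 were higher, *Cldn4*, *Cldn6* and *Cldn7*, against 33.2% of all genes, and 1 was lower, *Cdh1*, against 7.6%. Centred, *Cldn4* and *Cldn7* (against 19.7% of genes) and *Cdh1* (against 2361 of 14733) were past 1.5-fold and *Cldn6* was not. As deposited, 7 were higher and 3 lower, with a median of 0.13, where 69.5% of all genes were higher, but centred, 3 were higher and 7 lower, with a median of -0.16. With 10 genes such counts stand near the background shares, and nothing particular to these genes is read from them. With the E16.5 wild type library in place of the E18.5 wild type library, all 10 were lower in the E18.5 mutant library, from -0.61 for *Cdh1* to -0.07 for *Cldn4* on the log2 scale, a comparison that also differs in stage.

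Between stages, wild type and mutant libraries were compared in turn. These comparisons share libraries with those between genotypes. From E16.5 to E18.5 in wild type, 9 of the 10 were lower and 1 higher, where 27.7% of all genes were higher. The median log2 fold change of the 10 was -0.53. The median of all genes was -0.33, and when centred 7 of the 10 were lower, with a median of -0.19. Past 2-fold were *Cldn7* (-1.53) and *Cldn4* (-1.03), 2 of 10 against 16.8% of 14807 genes that were lower past 2-fold. Lower past 1.5-fold were 5 of 10, with *Grhl2*, *Cldn3* and *Cldn6*, against 35.9% of genes. Centred, *Cldn7* alone was lower past 2-fold (against 8.23% of genes), and *Cldn4* and *Cldn7* alone past 1.5-fold (against 19.8%). *Cdh1* was the exception, with 0.05 as deposited. In the mutant, 8 of the 10 were lower and 2 higher, where 35.3% of all genes were higher, with a median of -0.38 (-0.32 when centred), and none was past 2-fold, against 1.92% of 14713 genes either way. Only *Cldn6* was lower past 1.5-fold, against 1.68% of genes. *Esrp2* (0.15) and *Cldn4* (0.05) were higher.

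Between the mutant libraries the median of all genes was -0.06 and the rank correlation of the ratio with GC content -0.22, against -0.33 and -0.48 between the wild type libraries. In the mutant the same 8 genes were lower at E18.5 in every alternative tried. The log2 fold changes of these 8 were -0.24 for *Cdh1* and *Esrp1*, -0.36 for *Ocln*, -0.40 for *Epcam*, -0.41 for *Grhl2*, -0.49 for *Cldn7*, -0.52 for *Cldn3* and -0.76 for *Cldn6*. For *Cldn6*, 0.924% of all genes were at or below this value, and for *Cldn3* 2.22%.

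Ratios of 2 genes within a library do not depend on how libraries are scaled, and *Epcam* was used as the common term. *Cdh1* over *Epcam* was 0.600 in wild type and 0.426 in the mutant at E16.5, and 0.762 and 0.473 at E18.5. The log2 difference between genotypes was -0.49 and -0.69. *Esrp2* over *Epcam* was 0.141 and 0.0904 at E16.5 and 0.165 and 0.132 at E18.5. This too was lower in the mutant at each stage, with log2 differences of -0.64 and -0.32. *Cldn6* over *Epcam* was higher in the mutant at each stage, with log2 differences of 0.41 and 0.59. *Cldn7* over *Epcam* was 0.436 in both E16.5 libraries, 0.186 in E18.5 wild type and 0.407 in E18.5 mutant. *Ocln* over *Epcam* was the steadiest as deposited, between 0.109 and 0.122. Such ratios still carry the shift on length and GC content where the 2 genes differ in these. After subtraction of that trend, the E18.5 log2 fold change between genotypes was 0.13 for *Ocln* and -0.55 for *Epcam*. The steadiness of this ratio thus depended on the processing.

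**Figure D3:**
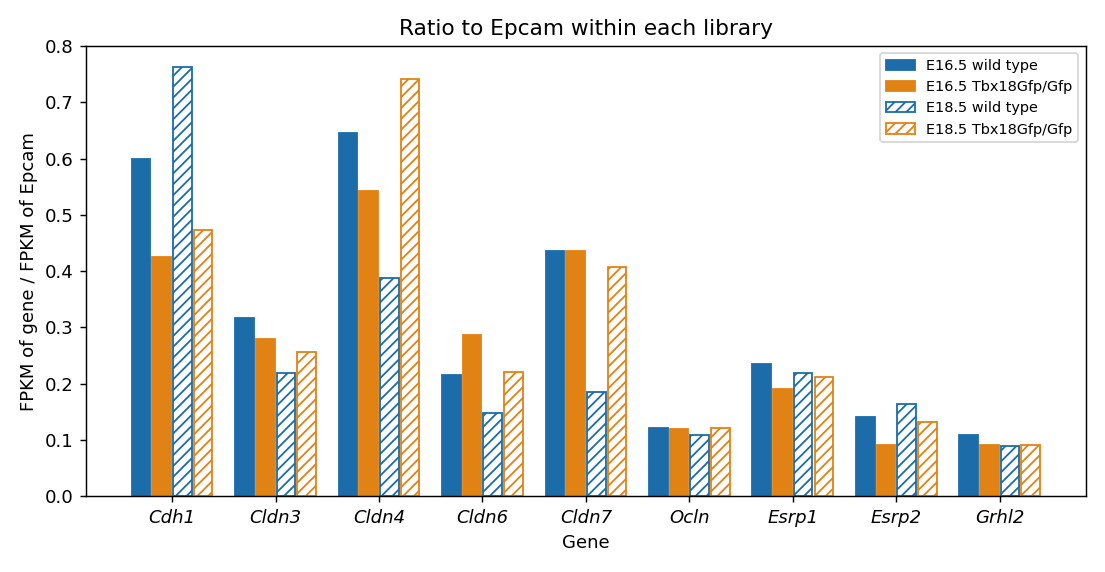
FPKM of 9 genes divided by that of *Epcam* in the same library, with filled bars for E16.5, hatched bars for E18.5, blue for wild type and orange for *Tbx18Gfp/Gfp*. The ratio of *Cdh1* is lower in the mutant at both stages (0.600 to 0.426 and 0.762 to 0.473), and that of *Cldn7* is near 0.4 in every library but E18.5 wild type.

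Against the mesenchyme, *Epcam* over *Vim*, the gene for the mesenchymal filament protein vimentin, was 0.149, 0.167, 0.134 and 0.116 in the order of libraries, higher in the mutant at E16.5 and lower at E18.5. *Cdh1* over *Vim* was 0.0896, 0.0711, 0.102 and 0.0551, lower in the mutant at both stages. The 2 epithelial markers therefore gave opposite directions for epithelium against mesenchyme at E16.5.

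The 10 genes differ in the GC content of their transcripts, from 42.0% for *Ocln* to 62.7% for *Cldn3*, and in length, from 1.26 kb for *Cldn3* to 4.95 kb for *Grhl2*. The claudins are short and rich in GC. Across all genes, the E18.5 median of log2 fold changes ran from -0.06 in the lowest to 0.80 in the highest of 10 bins of GC content, and stayed between 0.00 and 0.02 at E16.5. After subtraction of the smooth trend on length and GC, the E18.5 log2 fold changes were 0.35 for *Cldn7*, 0.19 for *Cldn4*, -0.07 for *Cldn6* and -0.80 for *Cldn3*. Those of *Cdh1* and *Esrp2*, at 50.7% and 56.0% GC, were then -0.96 and -0.89. The part of GC content in the E18.5 values of the claudins was not tested beyond this subtraction.

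**Figure D4:**
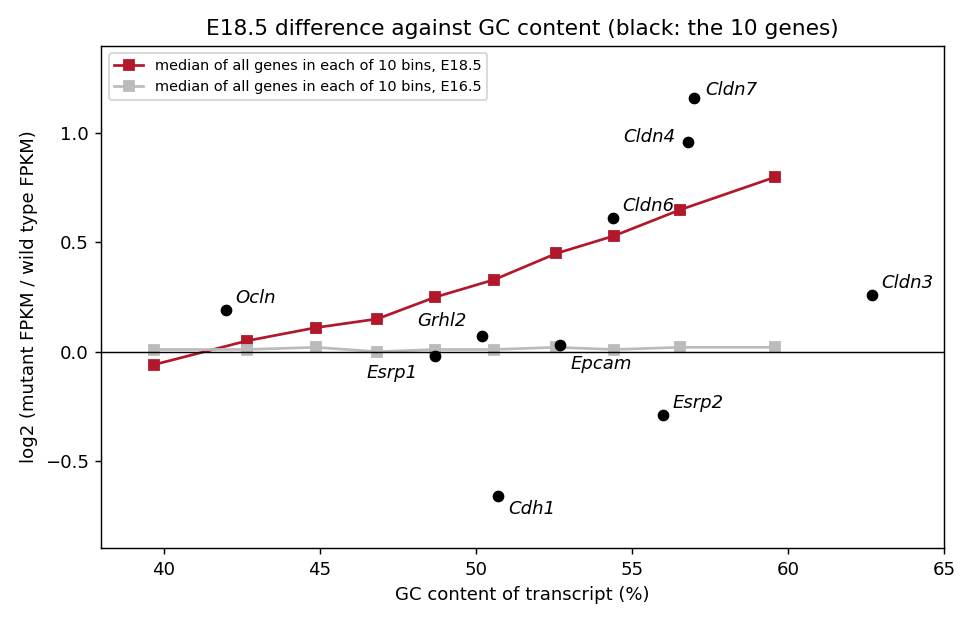
Log2 fold change of mutant over wild type at E18.5 against the GC content of the transcript (percent), with the 10 genes as black points and the median of all genes in 10 bins of GC content as red squares (E18.5) and grey squares (E16.5). The red line climbs from -0.06 to 0.80, and *Cldn7*, *Cldn4*, *Cldn6* and *Ocln* lie on or above it. *Cdh1* (-0.66), *Esrp2* (-0.29), *Epcam*, *Esrp1* and *Grhl2* lie below it, and *Cldn3* (0.26) lies below its right end.

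Other epithelial genes were read from lists chosen by function. Of 17 genes of adherens junctions and desmosomes, 12 were lower in the mutant at E16.5, with a median log2 fold change of -0.27, and 1 was past 1.5-fold, *Ppl*, for the desmosomal protein periplakin, with 16.4, 10.6, 13.6 and 9.61 FPKM. *Evpl*, for the related envoplakin, followed with -0.50, and *Dsc2* and *Pkp2*, for desmosomal proteins, were highest with 0.34 and 0.33. At E18.5, 10 of 17 were higher, with a median of 0.09 (-0.20 when centred). *Pkp3*, for a plakophilin of desmosomes, and *Pvrl2*, for a nectin, were highest with 1.19 and 0.82, and *Dsg2* and *Dsp*, for desmoglein 2 and desmoplakin, lowest with -0.60 and -0.50. *Ppl*, *Dsp* and *Perp* had both mutant values below both wild type values, as *Cdh1* did. So did genes of other lists, among them *Tjp1*, *Klf5*, *Foxa1* and *Lad1*. The share of all genes with this pattern was not counted, so it is not read as particular to these genes.

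Of 20 genes of epithelial surface proteases, their inhibitors and trafficking, 16 were lower in the mutant at E16.5, with a median of -0.15 and none past 1.5-fold. *Rab25*, for a GTPase of epithelial recycling, and *Itgb4*, for an integrin of the basement membrane, were lowest with -0.42 and -0.32, and *Mal2* and *Arhgef16* highest with 0.30 and 0.18. At E18.5, 15 were higher, with a median of 0.33 (0.04 when centred). *Ap1m2*, for an adaptor of basolateral sorting, and *Ddr1*, for a collagen receptor, were highest with 1.21 and 1.2, and *Lad1* and *Mal2* lowest with -0.54 and -0.42.

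Of 9 keratins, 6 were lower in the mutant at E16.5, with a median log2 fold change of -0.25, and 8 were higher at E18.5, with a median of 0.53 (0.24 when centred). The lowest at E16.5 were *Krt13* (-0.64) and *Krt15* (-0.58), the latter from 383.9 to 257.6 FPKM, and *Krt17* and *Krt18* were highest with 0.07 and 0.03. At E18.5, *Krt8* and *Krt18*, for the keratins of luminal cells, were highest with 1.00 and 0.64, and *Krt13* alone was lower with -0.05. *Krt8* over *Epcam* was 1.522, 1.397, 1.222 and 2.399 in the 4 libraries, so that these epithelial genes did not differ by a common factor. Of 5 uroplakin genes, which mark urothelium, 4 were lower in the mutant at E16.5, with a median of -0.50, and 4 were higher at E18.5, with a median of 0.21 (-0.08 when centred). The lowest at E16.5 were *Upk1a* (-0.56) and *Upk1b* (-0.50), and the highest at E18.5 was *Upk3a* (0.96).

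**Figure D5:**
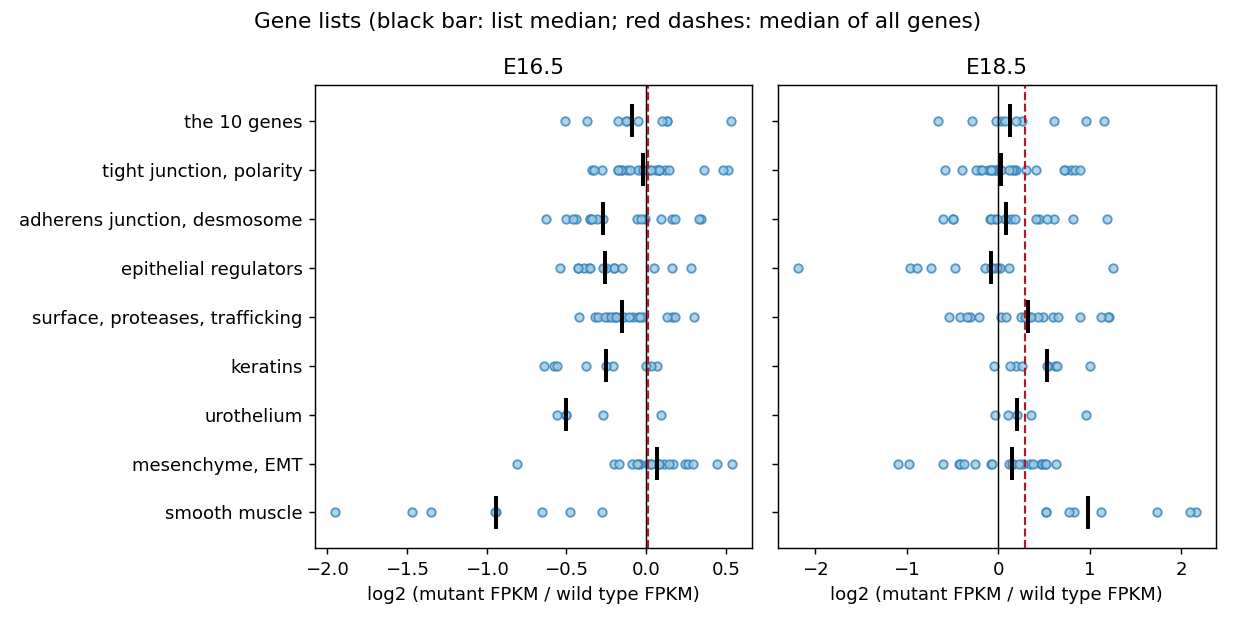
Log2 fold change of mutant over wild type of single genes (points) in the 10 genes and 8 other lists at E16.5 (left) and E18.5 (right), with the list median as a black bar and the median of all genes as a red dashed line. List medians at E16.5 run from -0.94 for smooth muscle to 0.07 for mesenchyme, and the 10 genes have a median of -0.09 at E16.5 and 0.13 at E18.5.

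Markers of other tissues were read beside these values. Of 21 mesenchymal genes, 14 were higher in the mutant at E16.5 with a median of 0.07, and 12 were higher at E18.5 with a median of 0.15 (-0.14 when centred). *Twist1* was lowest at E16.5 (-0.81) and *Cdh2* next (-0.20), *Thy1* and *Lum* highest (0.54 and 0.44). At E18.5, *Thy1* and *Snai2* were lowest (-1.10 and -0.98) and *Col3a1* and *Twist2* highest (0.63 and 0.52). The summed FPKM of the mesenchymal list was between 4353 and 5353 over the 4 libraries, and that of the 10 epithelial genes was 226.3, 223.9, 158.6 and 179.7. The sums of the 10 genes differed little between genotypes at E16.5, and so did those of the tight junction and polarity list (247.5 and 248.8). Other epithelial sums were lower in the E16.5 mutant than in wild type, for keratins 748.5 against 949.7 and for uroplakins 217.3 against 295.2. The sum of the 10 genes alone is therefore not read as the epithelial content.

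Of 8 smooth muscle genes, all were lower in the mutant at E16.5, with a median of -0.94, and all higher at E18.5, with a median of 0.98 (0.69 when centred). *Actg2* and *Myh11* were lowest at E16.5 (-1.95 and -1.47), and *Actg2* and *Tagln* highest at E18.5 (2.16 and 2.1). Hindgut epithelium also expresses claudins. Of its genes, *Cdx2* was listed at 0 in all 4 libraries, *Cdx1* had at most 0.0117 FPKM, and the summed FPKM of 8 hindgut genes was between 4.43 and 5.33. Of these *Lgals4* had log2 fold changes of 0.26 and -0.08, and *Gpa33* of 0.18 at E18.5.

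Epidermis genes summed to between 23.2 and 38.1 FPKM, with *Lor* (-0.54) and *Krt1* (-0.22) lowest at E16.5, *Krt1* (-0.92) and *Krt10* (-0.66) lowest and *Sbsn* (0.35) highest at E18.5. Of 7 genes of nephric and genital ducts, 5 were higher in the mutant at E16.5, with *Pax2* (0.98) and *Pax8* (0.68), both transcription factors of duct epithelium, highest and *Ret* (-0.23) and *Wfdc2* (-0.13) lowest. At E18.5, 5 were lower, with *Emx2* (-0.70) among the lowest and *Wfdc2* (1.62) and *Ret* (0.03) highest. The duct list, whose members are also epithelial, had a median of 0.36 at E16.5, with the sign of *Cldn6* and not of *Cdh1*. At E18.5 the median was -0.44 (-0.73 when centred), with the sign of *Cdh1* and not of *Cldn6*. The part of duct epithelium in the values of the 10 genes was not tested.

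All 8 endothelial genes were higher in the mutant at E16.5, with a median of 0.21 and *Emcn* (0.35) and *Esam* (0.26) highest. At E18.5, *Esam* (1.34) and *Egfl7* (1.16) were highest and *Emcn* (-0.74) and *Cdh5* (-0.19) lowest. All 6 leukocyte genes with at least 1 FPKM were higher at E16.5, with a median of 0.26 and *Lyz2* (0.60) and *C1qa* (0.34) highest, and at E18.5 *C1qa* (1.27) and *C1qc* (1.02) were highest and *Cd68* (-0.81) lowest. Whether these tissues bear on the 10 genes was not tested.

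For each of the 10 genes, the genes with the most similar pattern over the 4 libraries were found among 13614 genes with at least 1 FPKM in every library, by the root mean square difference of log2 FPKM, each gene centred on its own mean. With 4 libraries many genes lie this close, and the likeness is a description. Nearest to *Cdh1* were *Gfra2*, *Iqcc* and *Fut9*, with differences of 0.0283 to 0.0373. *Epcam* lay nearest to *Fgfr2* (0.0193) and *Eif3k* (0.0204). *Ocln* lay nearest to *Epb4.1l5* (0.00334), *Esrp1* to *Rtkn2* (0.0137), and *Grhl2* to *D2hgdh* (0.0245) and *Tmem30b* (0.0253). *Cldn4* lay nearest to *Ppcdc* (0.00815), *Cldn7* to *Pold1* (0.0171), *Cldn3* to *Celsr2* (0.0357), *Cldn6* to *Nxph3* (0.0696) and *Esrp2* to *Fam110c* (0.0212).

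Among themselves, the closest pair was *Epcam* and *Ocln* (0.07), followed by *Grhl2* with *Ocln* and with *Esrp1* (0.10 each). *Cdh1* was nearest to *Esrp2* (0.16) and farthest from *Cldn7* (0.81). *Esrp2* was likewise farthest from *Cldn7* (0.77).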

How the data were processed

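RNA-Seq was made from whole UGS in 4 libraries of RNA pooled from 3 male embryos each. The authors made stranded mRNA libraries, read them from one end, aligned the reads with Tophat and estimated expression with Cufflinks. The submitters' processing notes name CASAVA 1.8.2, Trimmomatic 0.30, TopHat2 2.1.0 and Cufflinks 2.2.1. The deposited values are FPKM for 25819 rows, 1 column per library, and no further scaling between libraries is stated. The genome build of the table is not given in the sources used here, and starts are printed counted from 1. Column names were matched to samples by their labels.

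Fold changes are ratios of deposited FPKM with no pseudocount. Genes needed 1 FPKM or more in one library of the pair, and were counted at 2-fold and 1.5-fold. With 1 library per group there was no test. Depth came from olfactory receptor genes of 1 exon that stood at the FPKM of a single read (11 to 24 in a library). Reads per gene used GENCODE M21 transcript lengths, and 95% intervals treat them as Poisson counts. Length and GC content were found for 93.7% of genes with at least 1 FPKM in any library. Alternatives were equal sums, centring on the median, equal 75th percentiles, pseudocounts of 0.1 and 1, subtraction of a lowess trend (span 0.3) on length and then on GC content, at least 5 FPKM, and no filter. Only the trend subtraction and the depth estimate were tested on simulated data, and the depth data were simulated with the same formula that the estimate fits. Promoters are RefSeq's (GRCm38.p6). The members and lists were chosen with earlier results of these data known. Named genes are the 10 members, the 2 with the largest rise and fall of each other list at each stage, and the 3 nearest in pattern; a few are not reported here and others, such as partners of the members, were added after their values were seen. Python 3.11.15, numpy 2.4.6, pandas 2.3.3, statsmodels 0.14.6 and matplotlib 3.10.9 were used.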

Additional observations from a re-analysis of the deposited data

Results flagged for a closer look

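*Cldn4* was the gene of the 10 whose genotype difference had opposite signs at the 2 stages with both counting intervals away from 0. Its log2 fold change of mutant over wild type was -0.12 in the E16.5 pair and 0.96 in the E18.5 pair, a difference of 1.08 between stages. With 1 library per genotype and stage this difference was not tested. Under the other ways of scaling and after detrending on transcript length and GC, the E16.5 value was between -0.23 and -0.12 and the E18.5 value between 0.19 and 0.70, and set against the E16.5 wild type library the E18.5 value was -0.07.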

How the results depend on the processing

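No paired analysis was possible because each genotype and stage has 1 library, and for the same reason no library was left out within a group. The reference of E16.5 wild type for the E18.5 mutant was chosen after seeing the data, and the other alternatives were planned.

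The median log2 fold change of the 10 genes between genotypes at E16.5 was -0.09 and moved only with equal sums, to -0.19. At E18.5 it was 0.13, and -0.30 with equal sums, -0.16 centred on the median of all genes, -0.14 with equal 75th percentiles, -0.22 after detrending on transcript length and GC, and -0.36 with E16.5 wild type as the reference. From E16.5 to E18.5 in wild type it was -0.53, and -0.23 with equal sums and with equal 75th percentiles, -0.19 centred and -0.11 after detrending. In the mutant it was -0.38 and stayed between -0.41 and -0.32. The count past 2-fold at E18.5 was 1, and 0 when centred, with equal 75th percentiles, after detrending and with E16.5 wild type as the reference. With equal sums it was 1, but this gene was *Cdh1* (-1.09) and not *Cldn7* (0.73). In wild type from E16.5 to E18.5 it was 2, and 1 with equal sums, centred, with equal 75th percentiles and with a pseudocount of 1, and 0 after detrending. *Cldn7* between genotypes at E18.5 reversed, from 1.16 to -0.37, with E16.5 wild type as the reference, which changes the stage as well as the library. The cause of the other changes was not tested. Depth limits *Cldn3*, *Cldn6* and *Cldn7* most, with 291 to 320 reads in the E18.5 wild type library.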

Other observations

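*Cldn5* and *Cldn11*, the other claudins above 1 FPKM in a list of claudins known from other cell types, had their own patterns. *Cldn5*, the claudin of endothelium, had 8.57, 10.4, 2.84 and 9.68 FPKM in E16.5 wild type, E16.5 mutant, E18.5 wild type and E18.5 mutant libraries. It was low in E18.5 wild type as *Cldn7* was, with log2 fold changes of 0.28 and 1.77 between genotypes. *Cldn11*, a claudin of myelin and of Sertoli cells, had 49.9, 55.3, 57.6 and 38.8 FPKM, with log2 fold changes of 0.15 and -0.57. Of the other 8 genes of this list, none reached 1 FPKM, and *Cldn14* and *Cldn18* were listed at 0 in every library.

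*Esrp2* and *Cdh1*, the members lower in the mutant at both stages beyond counting error, lie on chromosome 8, 466.4 kb apart. The stretch from the start of *Esrp2* to the end of *Cdh1* spans 539.1 kb and holds 15 rows of the table, 12 of them with at least 1 FPKM in a library. Of the 10 that are not members, 5 were lower in the mutant at E16.5, 3 at E18.5 and 2 at both, *1810019D21Rik* (-0.24 and -0.43) and *Zfp90* (-0.02 and -0.03). Past 2-fold higher at E18.5, as 15.1% of all genes were, were *LOC100504441* (22.5 to 87.5 FPKM), *Prmt7* (-0.05 and 1.25), *Pla2g15* (0.12 and 1.21) and *Slc7a6* (0.04 and 1.10). With the median of all genes taken off, *LOC100504441* alone stayed past 2-fold (1.67). Genes between *Esrp2* and *Cdh1* thus did not share one direction. Over all genes, 54.2% were higher in the mutant at E16.5 and 69.5% at E18.5. The counts of lower genes stand near these shares, and nothing particular to the stretch is read from them. This stretch was looked at after the values were seen.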
